A study of Mus musculus with 60 samples.

Results

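Expression of 10 genes of the YAP pathway was followed through 3 RNA-seq experiments on mouse cholangiocyte-derived organoids, which are hollow epithelial structures grown from bile duct cells of the liver. The genes were Yap1, Wwtr1, Tead1, Ctgf, Cyr61, Ankrd1, Amotl2, Lats2, Ajuba and Axl. They were found by matching the Ensembl identifiers of the count tables to these symbols, where Ctgf and Cyr61 are also called Ccn2 and Ccn1. All 10 had a row in each of the 3 tables, out of 31,354 genes in the tables together. Of the 10, 9 passed the filter on low counts in every table, and Axl passed it in none.

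The organoids came from C57BL/6N mice, given as males of 3 months in the study and as 3-4 months old in the sample labels, and all groups shared this strain, with no genetic change named in the labels. For the comparison of culture conditions, livers of 2, 4 and 3 mice were pooled, and the 3 pools were grown as 30 µl domes of Matrigel, a basement membrane gel, or in suspension with 10% Matrigel on an orbital shaker, with 1 library per pool and condition. For the comparison of passages, which count how often a culture was broken up and reseeded, bulk RNA of Sets 1, 3 and 4 (1 mouse each) was sequenced first at passage 4 and again at passage 11, and the 2 technical replicates of each were summed. For the comparison of single organoids, 35 organoids grown in suspension were used. Set 1 gave 8 organoids, taken at passage 11, Set 2 gave 10 and Set 3 gave 5, both taken at passage 3, while Set 4 gave 12, taken at passage 4. Each set stands for 1 mouse, so that organoids of a set are not independent animals, and mouse and passage cannot be told apart in the comparisons of Set 1 with the other sets or of Set 4 with Sets 2 and 3.

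YAP (Yap1) and its relative TAZ (Wwtr1) are transcriptional co-activators that enter the nucleus when the Hippo kinases are inactive, for example in cells that are stretched or sit on a stiff matrix. They do not bind DNA themselves but act through TEAD factors such as Tead1. The kinase Lats2 phosphorylates YAP and holds it in the cytoplasm, the angiomotin family member Amotl2 tethers it at cell junctions and the LIM protein Ajuba restrains the Lats kinases. Ctgf and Cyr61, secreted proteins of the CCN family, Ankrd1, an ankyrin repeat protein of muscle and stressed epithelium, and the receptor tyrosine kinase Axl are widely used as readouts of YAP and TEAD, and Amotl2 and Lats2 are themselves targets in a feedback loop. In the liver, the pathway sets organ size and is known for its high activity in bile duct cells.

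The TEAD factors recognise the letters CATTCC. The 250 bases before the annotated start were searched for these letters on both strands in the RefSeq promoters of build GRCm38.p6, in which 8 of the 10 genes had an entry, Ctgf and Tead1 excepted. The letters were found for 7 of these 8, namely Yap1, Wwtr1, Cyr61, Ankrd1, Amotl2, Ajuba and Axl, and for neither entry of Lats2, whereas 12.6% of all 32,851 promoters held them. The AP-1 letters TGANTCA and the CArG box bound by SRF, present in 6.75% and 1.47% of all promoters, were found in none of the entries of the 10 genes. Printed first are the promoters of the 2 targets with the lowest adj. P-values in the culture comparison among genes that passed the filter. Those of Amotl2, which differed between single organoids, and of Ajuba, which was called neither between culture conditions nor between sets of organoids, follow. These promoters are printed 5′ to 3′ on the strand of the gene, with CATTCC or its complement GGAATG in capitals. They lie at chr3:145649986-145650235 on the minus strand, chr19:36119845-36120094 on the minus strand, chr9:102717554-102717803 on the plus strand and chr14:54577662-54577911 on the minus strand.
Cyr61: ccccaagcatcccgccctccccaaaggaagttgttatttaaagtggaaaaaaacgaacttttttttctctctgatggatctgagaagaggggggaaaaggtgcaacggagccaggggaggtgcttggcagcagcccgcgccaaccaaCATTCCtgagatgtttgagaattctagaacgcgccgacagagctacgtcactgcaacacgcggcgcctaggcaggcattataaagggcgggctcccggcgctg
Ankrd1: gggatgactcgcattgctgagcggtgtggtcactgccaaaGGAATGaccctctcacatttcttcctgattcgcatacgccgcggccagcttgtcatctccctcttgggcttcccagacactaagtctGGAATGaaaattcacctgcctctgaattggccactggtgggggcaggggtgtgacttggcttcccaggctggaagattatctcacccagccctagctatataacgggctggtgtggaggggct
Amotl2: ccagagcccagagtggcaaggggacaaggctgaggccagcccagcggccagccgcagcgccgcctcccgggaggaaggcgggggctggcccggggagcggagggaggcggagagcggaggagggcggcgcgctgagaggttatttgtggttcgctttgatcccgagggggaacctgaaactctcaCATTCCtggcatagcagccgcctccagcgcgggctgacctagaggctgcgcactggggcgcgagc
Ajuba: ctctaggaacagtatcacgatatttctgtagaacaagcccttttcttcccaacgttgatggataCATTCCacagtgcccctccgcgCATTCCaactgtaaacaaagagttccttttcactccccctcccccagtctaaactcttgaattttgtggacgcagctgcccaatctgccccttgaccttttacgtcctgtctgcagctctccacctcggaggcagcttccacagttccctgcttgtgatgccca
Counted from the start, with −1 as the base just before it, the match began at −103 in Cyr61 and at −65 in Amotl2. Ankrd1 had matches at −210 and −123, both on the other strand, and Ajuba at −186 and −164. A match describes these letters and was not tested as a binding site.

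The libraries held 1,776,490 to 14,761,853 counts in the culture experiment, 639,086 to 3,175,147 before technical replicates were summed in the bulk experiment and 1,059,002 to 11,175,868 in the single organoids. Levels are given as CPM, the count of a gene scaled to the total of its library after TMM, and were compared between samples of a gene only. The domes 2 and 3 were shallow, with 1,885,591 and 1,776,490 counts, against 14,761,853 for dome 1. All 10 cholangiocyte markers were detected in every group, whereas the mesenchymal markers, of which 5 to 7 of 12 had a row in each table, summed to at most 6.05 CPM in any library. The endothelial markers, with 3 to 5 of 8 in each table, summed to at most 3.83 CPM. The macrophage list, with 6 of 8 in each table, was carried by Cd14. Of these 6, 5 or 6 had counts in each group, and 2 to 4 had a mean above 1 CPM. Those at 0 were Adgre1 in suspension, Lyz2 in bulk passage 4 and in Sets 1 to 3, and Ptprc in bulk passage 11. The hepatocyte list was led by Ttr, and its sums are given beside the comparisons. In bulk samples a change in the number of cells of a kind and a change in RNA per cell cannot be told apart. A gene is called where its adj. P-value in edgeR's quasi-likelihood F-test is below 0.05.

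To compare cultures in domes with those in suspension, the genes were tested between 3 dome and 3 suspension libraries. Of the 9 tested, Tead1, Cyr61 and Ankrd1 were down-regulated in domes and none was up-regulated, against 29.8% of all 12,699 genes tested that were called and 14.7% that were called as lower in domes. The ranges of the 2 conditions did not overlap for 6 of the 9 genes, which holds for 47.4% of all genes tested. The median log2 fold-change of the 9 genes was −0.61, against −0.04 over all genes.

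Ankrd1 was at 54.9, 47.7 and 23.1 CPM in domes 1 to 3 and at 99.3, 133 and 86.9 CPM in suspension cultures 1 to 3. Every suspension culture was above every dome. The gene was 2.49-fold higher in suspension (log2 fold-change dome minus suspension −1.32 ± 0.30 SE, adj. P-value 0.0110 in edgeR). Cyr61 was at 11.9, 25.7 and 18.7 CPM in domes and at 41.2, 44.7 and 39.3 CPM in suspension, where the 3 cultures lay close together while the domes spread over 2.16-fold. It was 2.37-fold higher in suspension (log2 fold-change −1.25 ± 0.28 SE, adj. P-value 0.00943 in edgeR). Both calls were kept in all 16 alternatives. Ctgf, of the same CCN family as Cyr61, pointed the other way. It was at 5.03, 8.80 and 5.50 CPM in domes and at 3.79, 3.78 and 3.93 CPM in suspension, with every dome above every suspension culture. The difference did not pass the test (log2 fold-change 0.63 ± 0.32 SE, adj. P-value 0.157 in edgeR), and a difference between the responses of both genes was not tested.

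**Figure D1:**
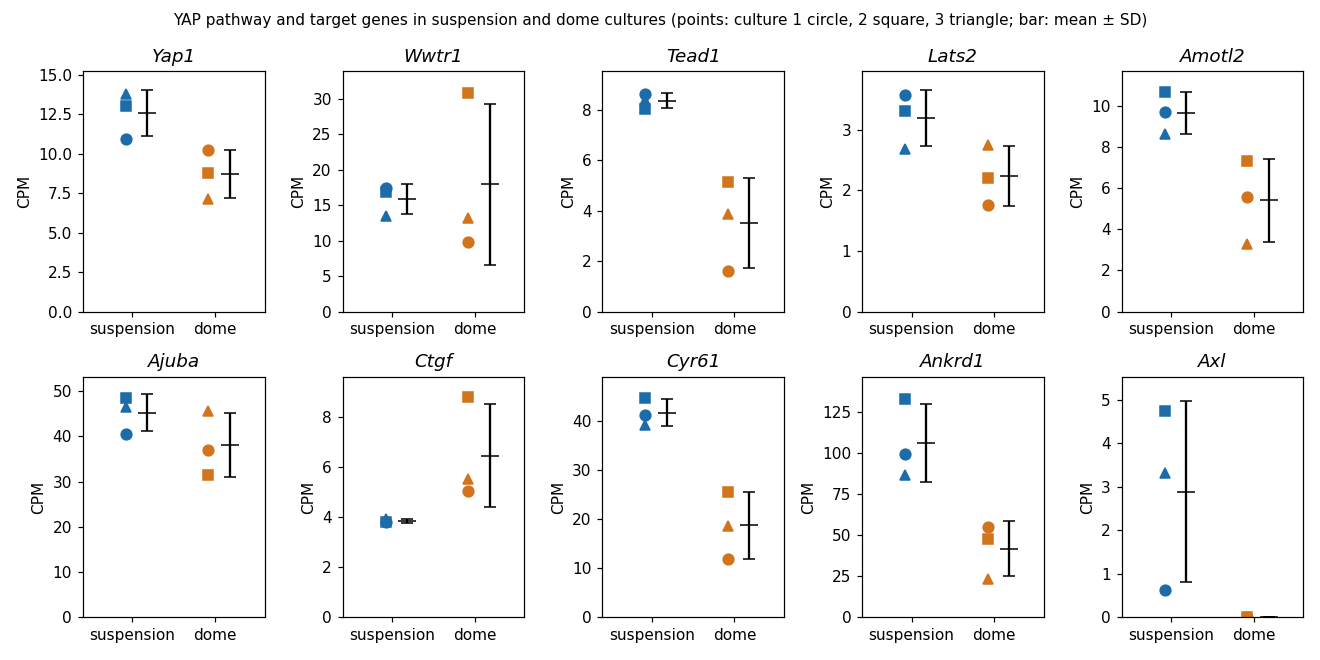
CPM (vertical axis, from 0) of the 10 genes in 3 suspension (blue) and 3 dome (orange) cultures, with the mean and SD as a bar beside the points and circle, square and triangle for cultures 1, 2 and 3. For Ankrd1, Cyr61 and Tead1 all domes lie below all suspension cultures, for Ctgf all lie above, and Axl is at 0 in the 3 domes.

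Among the co-activators and their partner, Tead1 stood apart. It was at 1.60, 5.13 and 3.85 CPM in domes, from 21, 7 and 7 counts, and at 8.63, 8.04 and 8.40 CPM in suspension. Tead1 was 3.12-fold higher in suspension (log2 fold-change −1.64 ± 0.42 SE, adj. P-value 0.0162 in edgeR). Without dome 1 the log2 fold-change was −0.92, and the call was lost (adj. P-value 0.0830 in edgeR). The call was also lost without suspension culture 1 (−1.57, adj. P-value 0.0582) or 3 (−1.59, 0.0637), where the difference itself hardly moved. After thinning all libraries to the smallest total, the adj. P-value was 0.0554. Yap1 was at 10.2, 8.80 and 7.15 CPM in domes and at 10.9, 13.005 and 13.8 CPM in suspension, and Wwtr1 at 9.75, 30.8 and 13.2 CPM in domes and at 17.5, 16.8 and 13.5 CPM in suspension. Yap1 did not overlap between conditions but missed the threshold (log2 fold-change −0.48 ± 0.25 SE, adj. P-value 0.162 in edgeR), and dome 2 alone set the wide range of Wwtr1 (0.05 ± 0.39 SE, adj. P-value 0.937).

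The regulators Amotl2, Lats2 and Ajuba were not called. Amotl2 was at 5.56, 7.33 and 3.30 CPM in domes and at 9.68, 10.6 and 8.61 CPM in suspension, without overlap (log2 fold-change −0.83 ± 0.30 SE, adj. P-value 0.0588 in edgeR). Its adj. P-value was 0.0490 with the culture number as a replicate block, which assumes that cultures of the same number share a pool, and 0.0370 without dome 2. Lats2, from 3 to 39 counts per library, was at 1.75 to 2.75 CPM in domes and 2.69 to 3.58 CPM in suspension, and Ajuba at 31.5 to 45.6 and 40.6 to 48.5 CPM. Their ranges overlapped, and neither was called (−0.61 ± 0.38 SE for Lats2 and −0.25 ± 0.20 SE for Ajuba on the log2 scale). Axl, which the filter left out, had no count in any dome and 3, 20 and 48 counts in suspension cultures 1 to 3, equal to 0.631, 4.73 and 3.31 CPM. Over the groups, Axl was at least 16.4-fold higher in suspension, taking 3 counts over the 3 domes as the limit that a count of 0 allows. This limit comes mainly from dome 1, where 3 counts equal 0.228 CPM, as in domes 2 and 3 they equal 2.20 and 1.65 CPM. It does not hold for each culture, as suspension culture 1, at 0.631 CPM from 3 counts, was below the limits of domes 2 and 3. Tested without the filter, Axl had an adj. P-value of 6.65e-08 in edgeR. It passed the filter in 7 alternatives, only through its uneven counts in suspension, as every dome was at 0. There its adj. P-value in edgeR was far less extreme, at 0.00141 to 0.0766. Axl was called in 6 of these 7, with the value of 0.0766 found without dome 1. As the filter was passed only through suspension, these calls add no support beyond the counts themselves.

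The other genes of the pathway were taken from a list of 22 Hippo pathway genes without the 10. Of the 22, all tested, 7 were lower and 1 was higher in domes, with a median log2 fold-change of −0.73. Over all genes tested, 29.8% were called and 14.7% were called as lower in domes. The TEAD factor Tead2 was at 5.06 ± 1.34 CPM (SD, n = 3) in domes and 12.7 ± 2.86 CPM in suspension, Frmd6, an upstream activator of the kinases, at 1.20 ± 0.46 and 4.36 ± 0.94 CPM, and their scaffold Sav1 at 0.707 ± 0.146 and 2.07 ± 0.58 CPM. The gene that was higher was Wtip, a LIM protein of the Ajuba family, at 14.3 ± 6.45 CPM in domes and 6.56 ± 1.16 CPM in suspension (log2 fold-change 1.26 ± 0.33 SE, adj. P-value 0.0194 in edgeR). Of 22 genes of a YAP target signature, 6 of which are among the 10, 19 were tested, 4 were lower and 1 was higher in domes, with a median of −0.53. Besides Ankrd1 and Cyr61, the lower ones were Igfbp3 and the Arf regulator Asap1, at 7.94 ± 1.64 CPM in domes and 20.3 ± 3.86 CPM in suspension. The ectonucleotidase Nt5e was higher, at 2.78 ± 0.14 CPM in domes and 0.251 ± 0.205 CPM in suspension.

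Beside these differences, 7 of 8 proliferation genes were lower in domes and none was higher, against 29.8% of all genes that were called. Their summed level was 216 to 420 CPM in domes and 636 to 754 CPM in suspension. Mitochondrial genes took 1.64% to 2.02% of counts in domes and 3.72% to 4.02% in suspension. Of 9 tested actin and SRF target genes, 2 were lower in domes, the non-muscle myosin Myh9 (log2 fold-change −1.23 ± 0.19 SE) and filamin A, Flna (−1.22 ± 0.21 SE). Immediate early genes differed in both directions, with 3 of 10 higher, among them Atf3 and Ier3, and 1 lower, Fosb. The cholangiocyte markers summed to 15400 to 31900 CPM in domes and 10400 to 11600 CPM in suspension, without overlap, with Krt18 in the lead at means of 9410 and 3480 CPM, while the hepatocyte markers overlapped at 312 to 857 and 264 to 649 CPM. Cd14 was at a mean of 190 CPM in domes and 583 CPM in suspension. The part of these differences in those of the 10 genes was not tested.

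To compare passages, the genes were tested between bulk samples of passage 11 and those of passage 4, with Sets 1, 3 and 4 in each. Without the set as a term, none of the 9 tested genes was called by edgeR, against 20.3% of all 13,738 genes, and none by DESeq2 or limma-voom, although Tead1, Ankrd1, Lats2 and Ajuba had an unadjusted P-value below 0.05. Other settings without the set gave calls. In edgeR without the filter 5 genes were called, with Ankrd1, Cyr61, Lats2 and Tead1 lower and Ajuba higher at passage 11. After thinning to the smallest total, 2 were called, Tead1 and Lats2, both lower. The shares of all genes called in these fits are not given here. No overlap between passages was seen for 2 of the 9, Tead1 and Lats2, against 39.5% of all genes. As the samples of a set came from the same mouse, the fit with the set as a replicate block compares within mice. In that fit 3 of the 9 genes were called, against 21.5% of all genes, with Ankrd1 and Tead1 lower and Ajuba higher at passage 11.

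Ankrd1 went from 262 to 110 CPM in Set 1, from 84.1 to 52.5 CPM in Set 3 and from 91.2 to 30.5 CPM in Set 4. It was lower at passage 11 in 3 of 3 sets, while Set 1 at passage 11 was still above Sets 3 and 4 at passage 4. The difference, passage 11 minus passage 4 on the log2 scale, was −1.14 ± 0.18 SE with the block (adj. P-value 0.00178 in edgeR) and −1.13 ± 0.48 SE without it (adj. P-value 0.126). With the block, the difference of Ankrd1 was −1.03, −1.39 and −0.98 without Sets 1, 3 and 4 (adj. P-value 9.24e-05 to 0.000201 in edgeR). Fits with a set left out hold few samples, here and for the genes below. Their P-values rest largely on the variance shared over all genes and do not measure replication across mice. Cyr61 went from 99.8 to 34.8 CPM in Set 1, but from 22.5 to 21.3 CPM in Set 3 and from 25.9 to 35.6 CPM in Set 4. The large difference was that of Set 1, and with the block the difference was −0.46 ± 0.31 SE (adj. P-value 0.319). Without Set 4 it was −0.85 (adj. P-value 0.00514) and without Set 1 it was 0.18. Ctgf, at 13 to 20 counts per sample, was at 3.37, 3.45 and 2.64 CPM at passage 4 and at 4.49, 2.78 and 9.54 CPM at passage 11 in Sets 1, 3 and 4, with both directions among the sets (log2 fold-change with the block 0.63 ± 0.44 SE, adj. P-value 0.340).

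**Figure D2:**
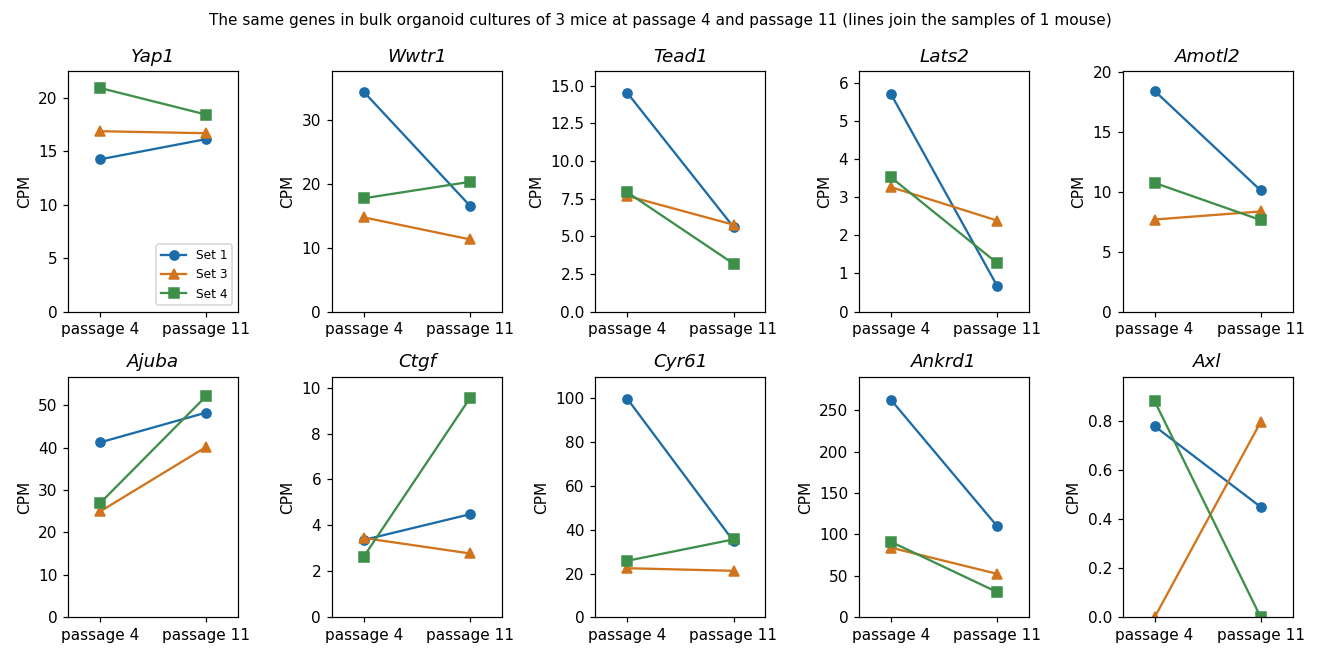
CPM (vertical axis, from 0) of the 10 genes in bulk cultures at passage 4 and passage 11, with a line for each of Sets 1, 3 and 4. For Ankrd1, Tead1 and Lats2 the point at passage 11 lies below that at passage 4 in all 3 sets, for Ajuba it lies above, and at passage 4 Set 1 lies far above the others for Cyr61 at 99.8 CPM and Ankrd1 at 262 CPM.

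Tead1 went from 14.5 to 5.61 CPM in Set 1, from 7.68 to 5.77 CPM in Set 3 and from 7.92 to 3.18 CPM in Set 4, the last from 5 counts. The passages did not overlap, and with the block the log2 fold-change was −0.97 ± 0.31 SE (adj. P-value 0.0445 in edgeR). Without Set 1 the value with the block was −0.68 (adj. P-value 0.216), and without Set 4 it was −0.90 (adj. P-value 0.0781). Yap1 lay between 14.3 and 20.9 CPM in the 6 samples (−0.05 ± 0.20 SE without the block, adj. P-value 0.901). Wwtr1 was at 34.5, 14.8 and 17.8 CPM at passage 4 and at 16.6, 11.3 and 20.4 CPM at passage 11 and was not called (with the block −0.47 ± 0.25 SE, adj. P-value 0.208).

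Ajuba was at 41.2, 25.0 and 26.9 CPM in Sets 1, 3 and 4 at passage 4 and at 48.2, 40.2 and 52.2 CPM at passage 11. It was higher at passage 11 in 3 of 3 sets, by 0.61 ± 0.18 SE on the log2 scale with the block (adj. P-value 0.0339 in edgeR), though not called without Set 3 (0.115) or without Set 4 (0.192). Lats2 was at 5.70, 3.26 and 3.52 CPM at passage 4 and at 0.673, 2.39 and 1.27 CPM at passage 11, the latter from 3, 12 and 2 counts. It was lower in 3 of 3 sets (log2 fold-change with the block −1.47 ± 0.52 SE, adj. P-value 0.0696 in edgeR), and called with the block without Set 3 (0.0188) or Set 4 (0.0381). Amotl2 was at 18.4, 7.68 and 10.7 CPM at passage 4 and at 10.1, 8.35 and 7.63 CPM at passage 11, with overlap, and Axl had at most 5 counts in any sample.

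At passage 4 Set 1 was the highest of the 3 sets for Wwtr1, Tead1, Cyr61, Ankrd1, Amotl2, Lats2 and Ajuba. The counts of called genes in the lists below stand against 20.3% of all 13,738 genes called in the fit without the block. Of the 22 further Hippo pathway genes, 4 were lower at passage 11 in the fit without the block, among them the angiomotin Amot (−0.98 ± 0.28 SE), Wtip (−0.91 ± 0.27 SE) and the kinase Taok1 (−0.89 ± 0.28 SE), and the TEAD factor Tead4 was higher (0.66 ± 0.20 SE). Of 18 tested genes of the target signature, 4 were lower and none higher, among them Gadd45a (−1.93 ± 0.48 SE), Tgfb2 (−1.71 ± 0.39 SE) and Fjx1 (−1.04 ± 0.32 SE). Of 9 tested immediate early genes 6 were lower, led by Atf3, Dusp1 and Klf6. Proliferation genes ran the other way, with 7 of 8 higher at passage 11 and a summed level of 279 to 305 CPM at passage 4 and 670 to 1010 CPM at passage 11. Mitochondrial genes took 1.81% to 2.63% of counts at passage 4 and 0.891% to 1.76% at passage 11, and the hepatocyte markers summed to 312 to 737 CPM at passage 4 and 793 to 1150 CPM at passage 11, both without overlap. Most of the hepatocyte sum was Ttr alone, at means of 499 and 829 CPM. Of the 8 hepatocyte markers with a row, 5 had a mean above 1 CPM at passage 4 and 4 at passage 11. Cd14 was at a mean of 1040 CPM at passage 4 and 469 CPM at passage 11. The part of these in the differences of Ankrd1, Tead1 and Ajuba was not tested.

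To address differences between single organoids, the 4 sets were compared in 1 fit with adjustment over all 6 comparisons, which share sets with each other. Of the 9 tested genes, 2 were called between Sets 1 and 2, 4 between Sets 1 and 3, none between Sets 1 and 4 or Sets 2 and 3, 1 between Sets 2 and 4 and 3 between Sets 3 and 4. The corresponding shares of all 13,927 genes tested were 14.3%, 9.43%, 20.0%, 3.93%, 12.4% and 11.6%. The calls fell on Tead1, Ankrd1, Amotl2 and Ctgf, with Set 2 or Set 3, both at passage 3, as the higher and Set 1 or Set 4 as the lower of each pair. In the comparisons with no call, 1 of the 9 genes had an unadjusted P-value below 0.05 in each, where limma-voom called 1 and 0 genes and DESeq2 none.

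Ankrd1 ranged from 316 to 593 CPM with a median of 479 CPM in Set 3, from 102 to 833 CPM with a median of 140 CPM in Set 2, from 43.3 to 186 CPM with a median of 117 CPM in Set 1 and from 33.5 to 390 CPM with a median of 75.8 CPM in Set 4. All 5 organoids of Set 3 were above all 8 of Set 1. Ankrd1 was 4.12-fold higher in Set 3 than in Set 1 (log2 fold-change Set 1 minus Set 3 −2.04 ± 0.49 SE, adj. P-value 0.00403 in edgeR) and 3.64-fold higher than in Set 4 (1.86 ± 0.44 SE, adj. P-value 0.00338), and the calls were kept in 23 of 23 and 27 of 27 alternatives. Organoid 2 of Set 3, which was left out, held Ankrd1 at 179 CPM and Amotl2 at 6.25 CPM, below every kept organoid of Set 3 and within the range of Set 1. Sets 2 and 3, both at passage 3, differed by −0.88 ± 0.46 SE (adj. P-value 0.218), Sets 1 and 2 by −1.17 ± 0.43 SE (0.0645) and Sets 2 and 4 by 0.99 ± 0.37 SE (0.0763). Sets 1 and 4, next to each other in the order of levels, differed by −0.18 ± 0.40 SE.

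**Figure D3:**
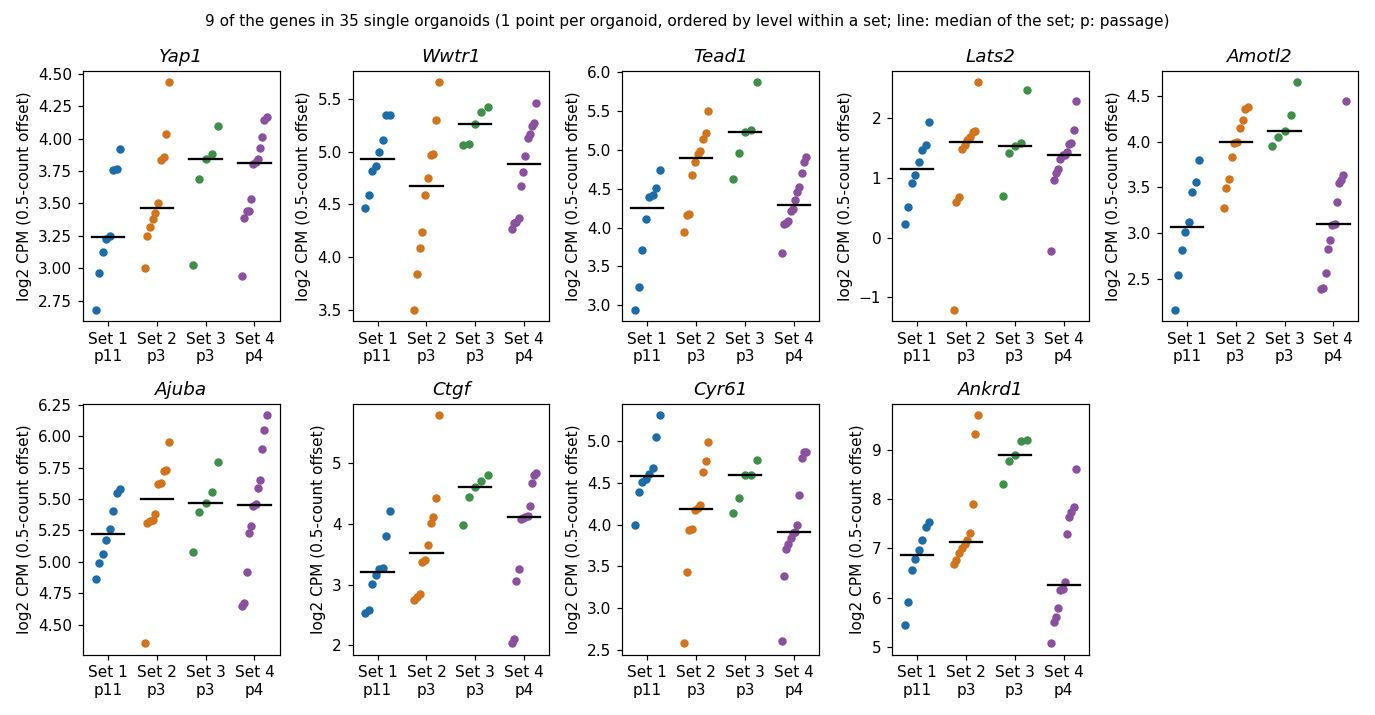
log2 CPM, with 0.5 counts added, of 9 genes in 35 single organoids (1 point each, ordered by level within its set), with the median of each set as a line and the passage under the set. Ankrd1 and Amotl2 of Set 3 lie above all organoids of Set 1, while for the other genes shown the ranges of any pair of sets overlap.

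Amotl2 followed the same order of Set 3 and Set 2 above the others. It was at 15.3 to 24.9 CPM in Set 3 and 9.20 to 20.7 CPM in Set 2, with medians of 17.2 and 15.7 CPM, and at 4.26 to 13.6 CPM in Set 1 and 5.06 to 21.5 CPM in Set 4, with medians of 8.30 and 8.26 CPM. The pairs with a call were Sets 1 and 3 (log2 fold-change −1.11 ± 0.26 SE, adj. P-value 0.00335 in edgeR), Sets 3 and 4 (1.01 ± 0.24 SE, 0.00383), Sets 1 and 2 (−0.84 ± 0.23 SE, 0.0107) and Sets 2 and 4 (0.75 ± 0.20 SE, 0.0124). The call between Sets 1 and 2 was lost after thinning (adj. P-value 0.0745). With the organoid number as a replicate block, those between Sets 3 and 4 (0.0605) and Sets 2 and 4 (0.115) were lost. That number is only a name and joins unrelated organoids of different mice, so this block does not bear on Amotl2. Within these 2 levels, Sets 2 and 3 differed by −0.27 ± 0.25 SE and Sets 1 and 4 by −0.10 ± 0.22 SE. Tead1 had medians of 37.4 CPM in Set 3, 29.6 CPM in Set 2, 19.4 CPM in Set 4 and 19.0 CPM in Set 1, with ranges of 24.4 to 58.5, 15.2 to 45.3, 12.7 to 30.0 and 7.62 to 26.4 CPM. It was lower in Set 1 than in Set 2 (−0.79 ± 0.23 SE, adj. P-value 0.0171) and Set 3 (−1.19 ± 0.26 SE, 0.00159), and higher in Set 3 than in Set 4 (0.89 ± 0.24 SE, 0.00969). The last call was lost without organoid 3 of Set 3 (adj. P-value 0.0784) and with all 42 organoids (0.0986).

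Of the CCN genes, Ctgf had medians of 24.2 CPM in Set 3, 17.2 CPM in Set 4, 11.2 CPM in Set 2 and 9.12 CPM in Set 1. It was called only between Sets 1 and 3 (log2 fold-change −1.23 ± 0.41 SE, adj. P-value 0.0411 in edgeR), a call that was lost in 12 of 23 alternatives. Within Set 2 Ctgf spread from 6.44 to 55.2 CPM and within Set 4 from 3.89 to 28.5 CPM. Cyr61 ordered the sets in another way, with Set 1 among the highest. Its medians were 23.9 CPM in Set 3, 23.8 CPM in Set 1, 18.0 CPM in Set 2 and 14.8 CPM in Set 4, and no pair was called, the nearest being Sets 1 and 4 (0.59 ± 0.23 SE, adj. P-value 0.0788). Its ranges of 17.4 to 27.1, 15.5 to 39.2, 5.52 to 31.5 and 6.00 to 29.0 CPM overlapped.

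The co-activators themselves were not called between any sets. Yap1 had medians of 9.34, 10.8, 14.1 and 13.9 CPM in Sets 1 to 4, within an overall range of 6.03 to 21.2 CPM, and Wwtr1 medians of 30.4, 25.3, 38.3 and 29.4 CPM, within 11.1 to 50.5 CPM. The log2 fold-changes of Yap1 between sets lay between −0.38 ± 0.23 SE for Sets 1 and 3 and 0.01 ± 0.21 SE for Sets 3 and 4. Ajuba had medians of 37.2, 45.2, 43.9 and 43.6 CPM in Sets 1 to 4. Lats2 was at or below 5.85 CPM in every organoid, with medians of 2.14, 2.76, 2.63 and 2.40 CPM. No pair of sets was called for either gene, with differences of −0.42 ± 0.38 SE to 0.30 ± 0.36 SE for Lats2 and −0.25 ± 0.18 SE to −0.00 ± 0.22 SE for Ajuba on the log2 scale. Axl was at 0 in 6 of 8 organoids of Set 1, 5 of 10 of Set 2, 4 of 5 of Set 3 and 9 of 12 of Set 4, with at most 3 counts in any organoid.

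**Figure D4:**
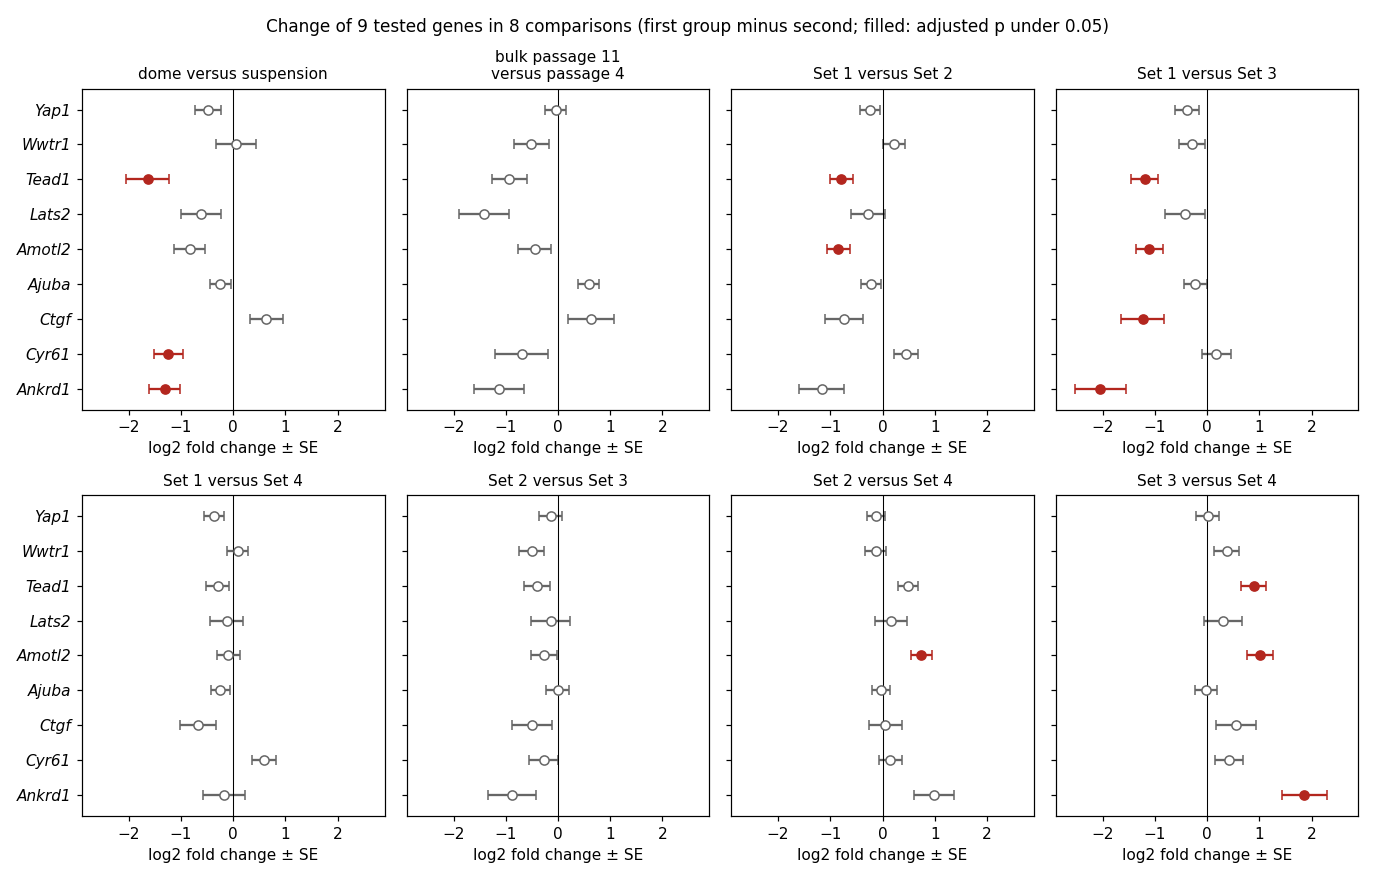
log2 fold-changes with SE (horizontal axis) of the 9 tested genes in 8 comparisons, first group minus second, in edgeR's fit without a replicate block, where filled red points have an adj. P-value below 0.05. Tead1, Amotl2 and Ankrd1 carry 11 of the 13 filled points, while Yap1, Wwtr1, Lats2 and Ajuba carry none.

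The spread between organoids of the same set differed between the genes. The SD of log2 CPM within sets was 0.96 for Ankrd1, 0.82 for Ctgf, 0.75 for Lats2 and 0.58 for Cyr61, and 0.41 to 0.50 for Yap1, Ajuba, Wwtr1, Amotl2 and Tead1, against a median of 0.502 over all genes tested. To account for sampling noise at low counts, the biological coefficient of variation of each gene was divided by the trend of all genes at its level. The ratio was 2.19 for Ankrd1, which was above that of 99.3% of genes, and 1.69 for Ctgf, above that of 97.4%. For Lats2, whose counts were low, the ratio was 0.77, and for Yap1 it was 0.78. Ankrd1 varied by 11.6-fold between the lowest and the highest organoid of Set 4 and by 8.15-fold in Set 2, where organoids 7 and 4 were at 833 and 640 CPM and the next at 240 CPM. The set explained 49.4% of the variance of log2 CPM for Amotl2, 42.2% for Ankrd1 and 40.9% for Tead1, against a median of 19.3% over all genes, and 3.15% and 4.45% for Lats2 and Ajuba.

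To see which of the genes varied together, log2 CPM was centred within each set and correlated over the 35 organoids, which share their sets, libraries and depth, so that the values are given as a description. Of the targets, Ctgf, Cyr61, Ankrd1 and Amotl2 had positive values with each other. Pearson's r was 0.676 for Ctgf and Amotl2, 0.671 for Ctgf and Cyr61, 0.625 for Ankrd1 and Amotl2, 0.608 for Cyr61 and Amotl2, 0.604 for Ctgf and Ankrd1 and 0.341 for Cyr61 and Ankrd1. Of the genes compared with each of them, 2.5% had an r above 0.564 for Ctgf, 0.615 for Cyr61 and 0.633 for Ankrd1. The 3 values of Ankrd1 were below its limit, as were those of Cyr61 with Amotl2 and Ankrd1 below that of Cyr61, while the 3 values of Ctgf were above its own. For Ctgf and Cyr61 r was positive in each of Sets 1 to 4, at 0.424, 0.577, 0.587 and 0.810, while for Ctgf and Amotl2 it was −0.133 in Set 3. The target Lats2, at low counts, had values of −0.003 with Ctgf, 0.110 with Cyr61, 0.111 with Ankrd1 and 0.023 with Amotl2. Wwtr1 varied with Ankrd1 at 0.641, with Tead1 at 0.558 and with Ctgf at 0.538, of which the second was −0.083 in Set 3 and the third −0.081 in Set 1. The r of Yap1 with the other 8 genes lay between −0.224 for Amotl2 and 0.237 for Lats2, also with opposite signs between sets, as for Amotl2 with −0.916 in the 8 organoids of Set 1 and 0.685 in the 5 of Set 3.

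**Figure D5:**
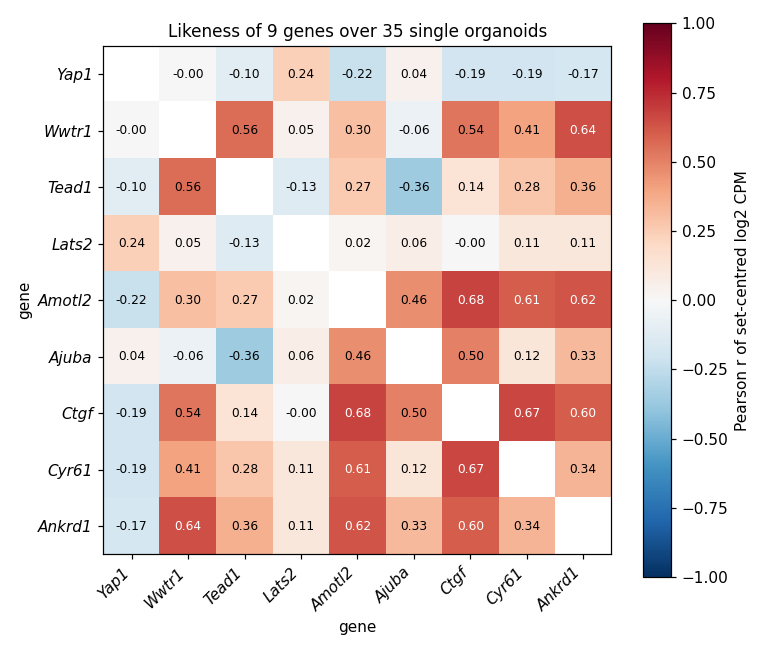
Pearson's r of set-centred log2 CPM between 9 genes over 35 single organoids, from blue for −1 to red for 1, with the value in each cell. Ctgf, Cyr61, Ankrd1 and Amotl2 form a block of positive values up to 0.68, and the row of Yap1 stays near 0.

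Of 6,487 genes whose average log2 CPM reached 4, those most like Ctgf over the 35 organoids were Sorbs2 (r = 0.769), Eif1a (0.749), Arl4c (0.737), Wwc2 (0.721), a Hippo pathway scaffold, and Eif2s1 (0.716). Those most like Cyr61 were Dnajb6 (0.821), Calm2 (0.790), Dzip1l (0.755), Csnk1g3 (0.745) and Zfp568 (0.733). For Yap1 the highest values were lower, with Znrf2 (0.569), Coa7 (0.557), Scarb2 (0.520), Rtn4 (0.509) and Gm32899 (0.506). For Ankrd1, which was added after its values were seen, they were Cxcl2 (0.858), Slco3a1 (0.834), Serpinb6b (0.815), Sorbs2 (0.811) and F2rl1 (0.794), of which Sorbs2, an actin-binding adaptor, also led the genes of Ctgf.

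Other measures of the same organoids moved with some of the genes. The values of r given here were chosen from those of all tested genes of the 10 with each measure. Others of like size, such as −0.506 for Tead1 with cholangiocyte markers, are left out. No share over all genes was set beside them. The mean of the proliferation list varied with Tead1 at r = 0.718 and with Wwtr1 at 0.481, and that of the actin and SRF target list with Ankrd1 at r = 0.625 and Amotl2 at 0.578. Yap1 varied against the immediate early list at −0.539. The total count of the library varied against Tead1 at −0.427 and Wwtr1 at −0.338, and the mitochondrial share varied with Tead1 at 0.561. Hepatocyte markers varied against Ankrd1 at −0.554, cholangiocyte markers against Wwtr1 at −0.552, and mesenchymal markers, which summed to 0 to 4.62 CPM, with Ctgf at 0.447. Between sets, 3 of 8 proliferation genes were lower in Set 1 than in Set 2 and 6 of 8 lower than in Set 4, against 14.3% and 20.0% of all genes called. None was called in the other comparisons. The hepatocyte markers summed to 469 to 702 CPM in Set 3, against 591 to 2600 CPM in Set 1, 554 to 1520 CPM in Set 2 and 510 to 2650 CPM in Set 4. Most of these sums was Ttr, at means of 1350, 857, 515 and 1350 CPM in Sets 1 to 4. The part of these measures in the differences between organoids and sets was not tested.

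Among the 22 further Hippo pathway genes, Tead2 was lower in Set 1 than in each other set. It was at 5.35 ± 1.17 CPM (SD, n = 8) in Set 1, 14.98 ± 4.34 CPM in Set 2 (n = 10), 19.6 ± 4.497 CPM in Set 3 (n = 5) and 15.1 ± 4.26 CPM in Set 4 (n = 12), without overlap between Set 1 and any other set. The log2 fold-changes were −1.51 ± 0.20 SE, −1.92 ± 0.22 SE and −1.54 ± 0.19 SE, with adj. P-values of 8.56e-07, 6.43e-08 and 2.80e-07 in edgeR. Between passages 4 and 11 of the bulk cultures, Tead2 differed by −0.16 ± 0.41 SE (adj. P-value 0.819). The angiomotin Amotl1 was also lower in Set 1 than in the others, at 5.30 ± 2.09 CPM against 16.1 ± 6.64, 22.6 ± 10.9 and 9.21 ± 3.92 CPM in Sets 2 to 4, with log2 fold-changes of −1.72, −2.21 and −0.86.

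In these comparisons 4, 4, 7, 1, 3 and 4 of the 22 pathway genes were called between Sets 1 and 2, 1 and 3, 1 and 4, 2 and 3, 2 and 4, and 3 and 4. The shares of all genes called were 14.3%, 9.43%, 20.0%, 3.93%, 12.4% and 11.6% in the same order. Between Sets 3 and 4 all 4 called pathway genes were higher in Set 3, among them the kinases Stk3 (log2 fold-change 0.80 ± 0.24 SE) and Stk4 (0.71 ± 0.20 SE). Of the 19 tested genes of the target signature, 8 were higher and 1 lower in Set 3 than in Set 4, with a median log2 fold-change of 0.67 against 0.00 over all genes, and 7 were lower in Set 1 than in Set 3. Besides Ankrd1, these included the cytokine Tgfb2, at 22.0 ± 11.6 CPM in Set 3 and 5.50 ± 4.45 CPM in Set 4 (2.01 ± 0.37 SE, adj. P-value 0.000217), and tissue factor, F3, at 12.3 ± 3.92 and 3.49 ± 2.82 CPM (1.86 ± 0.43 SE, 0.00294). The lower one, Ccdc80, was at 2.69 ± 2.01 CPM in Set 3 and 10.4 ± 6.68 CPM in Set 4. The counts of the signature include genes of the 10 already described. Of its 14 tested genes outside the 10, 6 were higher and 1 lower in Set 3 than in Set 4. In Set 1, 4 of these 14 were lower than in Set 3. Between Sets 1 and 4, the signature divided into 4 genes that were higher in Set 1, among them Myof, Crim1 and Dock5, and 1 that was lower, Ccdc80. Of the actin and SRF targets, Flna was lower in Set 1 than in Set 3 (−1.09 ± 0.17 SE) and higher in Set 3 than in Set 4 (0.70 ± 0.16 SE).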

How the data were processed

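The values deposited by the authors are gene counts of 3′-end libraries with UMIs, as whole numbers. Per the paper and the processing notes of the submitters, zUMIs with STAR, SAMtools 1.9 and featureCounts was used on GRCm38 with Ensembl annotation, with down-sampling. No source used here states whether the counts are UMIs or reads, or whether they precede down-sampling. Single organoids were brought to a like input by Actb qPCR. The 7 of 42 organoids that the authors removed were left out, and technical replicates were summed.

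Genes with low counts were removed by filterByExpr (minimum 3), and the rest were scaled by TMM and tested in edgeR 4.0.16 (R 4.3.3) by quasi-likelihood F-tests with Benjamini-Hochberg adjustment at 0.05. The SE comes from the F statistic. log2 CPM used an offset of 0.5 counts. The 4 sets were fitted together. All of the 10 genes were named, and of the lists up to 3 called genes per direction and comparison. The genes and lists were chosen with earlier results of these data known. Gene positions are those of GRCm38, promoters those of RefSeq.

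The set number paired the bulk samples, as the same sets were used at both passages. For domes and suspension, no label states that cultures of the same number share a pool, so that this pairing is an assumption. Deviations from the group means correlated at 0.133, 0.153 and 0.188 between dome and suspension cultures of the same number (0.0980, 0.0283 and 0.0858 between passages). Correlations between unlike numbers are not given here. Replicates of a set are organoids of 1 mouse, so P-values there measure the spread between organoids. Intervals and limits of a count of 0 cover counting error only. Alternatives were RLE size factors, no filter, a minimum count of 10, limma-voom (limma 3.58.1), DESeq2 1.42.0, thinning to the smallest total, a replicate block, all 42 organoids, adjustment within a comparison, fits of 2 sets, 1 technical replicate and leaving out samples. The scripts were tested on simulated data.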

Additional observations from a re-analysis of the deposited data

Results flagged for a closer look

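In 27 groups of 4 to 10 organoids, the gap of the highest or lowest organoid to the next was compared with the range of the group. The gap was taken on log2 CPM, where chance flags about 1 in 20 groups, or 1.35 of the 27. Of these, 2 were flagged, which is near the number from chance. In Set 2, organoid 10 held Ajuba at 20.3 CPM, where the next was at 39.4 CPM, and organoid 2 held Lats2 at 0 CPM, where the next was at 1.21 CPM. Signals outside the comparisons came from the 7 organoids that were left out, in which 13 of 63 values were above and 9 below every kept organoid of the same set. Values above were taken only with more than 3 counts, while those below had no such limit, so that both numbers are not alike. As each set holds few kept organoids, some such values arise by chance, at a rate that was not computed.

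For the targets, Ankrd1 was at 395 CPM in left-out organoid 9 of Set 1, where the kept organoids reached 186 CPM. In Set 4, where the kept organoids reached 28.5 CPM, Ctgf was at 35.3, 56.0 and 30.5 CPM in left-out organoids 4, 8 and 10, and Cyr61 was at 37.3 CPM in organoid 8 against 29.0 CPM. Tead1 was at 35.3 and 49.5 CPM in organoids 4 and 10 of Set 4 against 30.0 CPM. Wwtr1 was at 51.5 CPM in organoid 9 of Set 1 against 40.5 CPM and at 44.4 CPM in organoid 4 of Set 4 against 43.8 CPM, and Yap1 was at 17.9 CPM in organoid 10 of Set 4 against 17.7 CPM. Lats2 was at 5.26 CPM in organoid 10 of Set 4, from 5 counts, against 4.67 CPM. Ajuba was at 73.9 CPM in organoid 10 of Set 1 against 47.5 CPM and at 75.2 CPM in organoid 8 of Set 2 against 61.5 CPM.

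Of the 9 values below, 5 were those of left-out organoid 2 of Set 3, which held Ankrd1 at 179 CPM against at least 316 CPM in the kept organoids, Ctgf at 7.50 against 15.6 CPM, Amotl2 at 6.25 against 15.3 CPM, Wwtr1 at 12.49 against 33.2 CPM and Tead1 at 22.5 against 24.4 CPM. The others were Wwtr1 at 16.2 CPM and Amotl2 at 3.47 CPM in organoid 10 of Set 1, and Yap1 at 6.22 CPM and Lats2 at 0 CPM in organoid 8 of Set 4. The left-out libraries held 666,660 to 1,152,914 counts, and what the difference in depth adds to these values was not tested.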

How the results depend on the processing

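In all alternatives (for Axl, those that tested it, against the fit without the filter), 1731 of 1792 values of the 10 genes kept their side of the threshold and their direction if called, 23 lost and 38 gained a call, and none reversed. Genes without a call in either setting count as kept, whatever their sign. The number of genes called was 5 for bulk passages and 2 for Sets 2 and 4 without the filter, 1 for Sets 1 and 4 with limma-voom, 2 for bulk passages and 1 for Sets 1 and 2 after thinning. The cause of these was not tested. With the replicate block it was 3 for bulk passages, 1 for Sets 1 and 4 and 0 for Sets 2 and 4, and the block changed no other count by over 1.5 times. For organoids the number is only a name: 35 same-numbered pairs of different sets correlated at a median of 0.0564 (−0.366 to 0.414), and 3 of 29 organoids correlated best with their own number. Leaving out 1 sample gave 2 to 5 called genes for domes and suspension (5 without dome 2, with Amotl2 and Axl added), 0 to 1 for bulk passages (1 without Set 1 at either passage or Set 3 at passage 11), 2 to 3 for Sets 1 and 2, 3 to 4 for Sets 1 and 3, 0 to 1 for Sets 1 and 4 (1 without organoid 6, 7 or 9 of Set 4), 0 to 1 for Sets 2 and 3 (1 without organoid 7 of Set 2), 1 to 2 for Sets 2 and 4 (2 without organoid 11 of Set 2 or Set 4) and 2 to 3 for Sets 3 and 4. With the block and 1 set or culture left out, added after seeing the data as was leaving out organoids of Sets 1, 2 and 4, it was 2 to 3 for bulk passages and 3 to 4 for domes and suspension. Of 796 alternative counts of the gene lists 130 moved by over 1.5 times, and of 1745 values of other named genes 237 lost their call. Low counts limit Axl, Lats2 and, in domes, Tead1.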
